A study of Gallus gallus with 2 samples.

Results

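The cells described here are 4919 cells of the embryonic chick cerebellum, 2463 from embryonic day 6 (E6) and 2456 from embryonic day 8 (E8), chosen by the absence of any transcript from 4 genes of the W chromosome. They are part of 15190 cells in the whole series. The measured values that chose them were the unique molecular identifiers (UMIs, 1 per captured transcript) of UBAP2L2, HNRNPKL, SPIN1L and SMAD7B, and a cell was kept only if their sum was 0. This left 99.0% of the 2488 cells at E6 and 99.1% of the 2478 cells at E8.

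In birds the female carries a Z and a W chromosome and the male carries a pair of Z chromosomes, so RNA from W genes comes from female cells. Birds balance the dose of Z genes only in part, and Z transcripts are therefore more abundant in male cells. The cerebellum grows from hindbrain neuroepithelium at the border with the midbrain. Its ventricular zone gives rise to GABAergic neurons, among them the Purkinje cells, and the rhombic lip gives rise to glutamatergic neurons, first those of the cerebellar nuclei and later the granule cells, whose precursors divide in an outer layer of the cortex.

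The study sampled wild-type chick embryos at E6, E7, E8 and E9, and the labels list no treatment. Cerebella were dissected and pooled, and polyadenylated RNA was read from single cells with a split-pool barcoding kit, in which cells collect their barcode over successive rounds of wells. Each stage filled 3 first-round wells, which were taken as splits of 1 pool, because nothing in the labels ties a well to an embryo. With 1 pool a stage no test was possible, every interval below covers counting error only, and a difference between stages cannot be told apart from a difference between the pools.

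After the selection E6 held 9157807 UMIs and E8 held 9951764, with 2731295 to 3604615 UMIs in a well. The median cell had 3022 UMIs and 1483 genes at E6, and 3310 UMIs and 1498 genes at E8. The median mitochondrial share of a cell was 0.286% at E6 and 0.182% at E8. The sublibraries, technical splits of the barcoded cells, shared 896 cell barcodes, 170 of them among the kept cells. Doublets were not removed.

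The W-linked genes were nearly silent at both stages, and this is a description of the values that chose the cells. At E6, 25 of 2488 cells (1.00%, exact 95% binomial interval 0.651 to 1.48) held a W-linked UMI, and at E8 22 of 2478 cells did (0.888%, 0.557 to 1.34). The share was 46.2% at E7 and 14.4% at E9. UBAP2L2 had 13 UMIs at E6 and 12 at E8, HNRNPKL had 7 and 6, SPIN1L had 4 and 4, and SMAD7B had 2 and 0. At E7 the same genes had 5822, 3626, 1307 and 735 UMIs. The most W-linked UMIs in 1 cell were 2 at E6 and 1 at E8, against 49 at E7.

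The share of RNA from the Z chromosome, which the selection did not use, overlapped between the stages. Z genes supplied 7.42% of the UMIs of genes with a chromosome at E6, with 7.55%, 7.30% and 7.40% in the 3 wells. At E8 they supplied 7.37%, with 7.43%, 7.42% and 7.27% in the wells. At E7 the share was 6.59% in cells without a W-linked UMI and 5.32% in cells with one, and at E9 it was 6.66% and 4.96%. The few E6 and E8 cells that did hold a W-linked UMI had Z shares of 7.41% and 7.61%, near those of the kept cells. Of 329 Z genes compared between E6 and E8, 38 were higher at E8 (11.6%) and 10 were lower (3.04%), with a median log2 ratio of −0.04. Over all 6709 genes compared, by the rule given below, 9.03% were higher, 4.01% were lower and the median was −0.09. That background also counts genes without an assigned chromosome, so it is not matched to the Z genes.

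**Figure D1:**
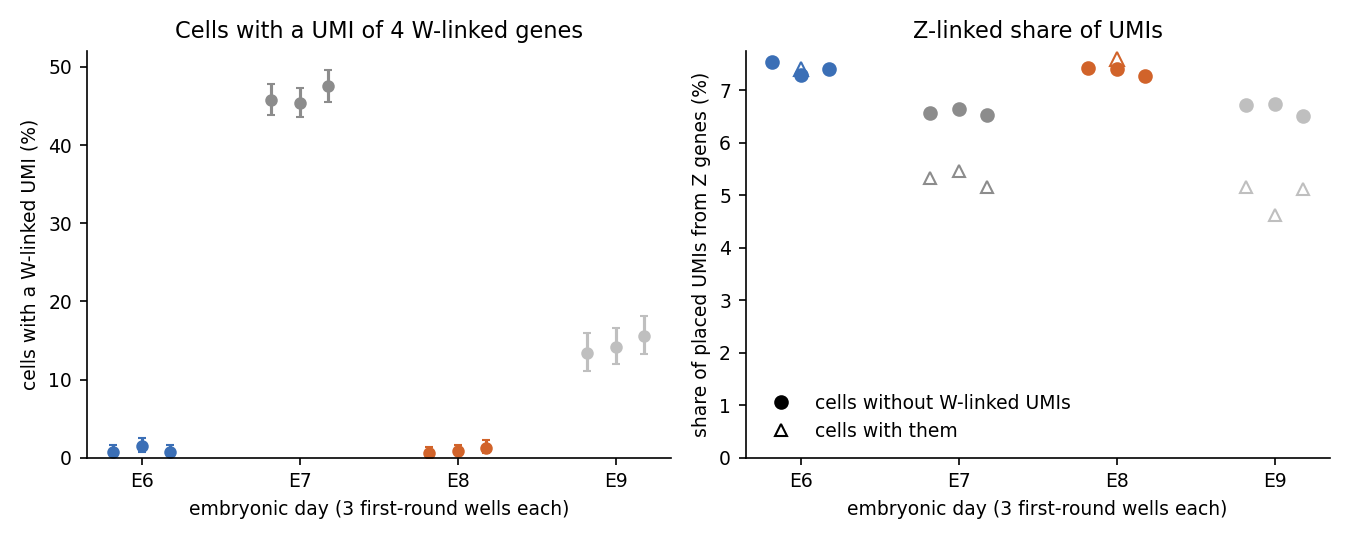
Left, percent of cells with a UMI of the 4 W-linked genes in each of the 3 first-round wells of a stage, with exact 95% binomial intervals. Right, percent of chromosome-assigned UMIs that come from Z genes, in cells without W-linked UMIs (filled circles, 1 per well) and with them (open triangles, 1 per well at E7 and E9, wells summed at E6 and E8). E6 and E8 lie near 1% on the left and between 7.27% and 7.61% on the right, and the cells with W-linked UMIs at E7 and E9 have the lowest Z shares.

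Levels below are counts per 1000000 UMIs (CPM) of all kept cells of a stage or a well. A gene was called higher or lower at E8 if its level differed by at least 2-fold and the 3 wells of one stage lay wholly above those of the other. This rule of size was applied to 6709 genes with at least 100 UMIs over both stages and at least 20 CPM at the higher one. A gene low at one stage could thus be compared only through the other, and the list counts and medians below cover the members that passed, not all members. It called 606 genes higher at E8, 9.03% of those compared, and 269 genes lower, 4.01%. The median log2 ratio of all 6709 genes was −0.09. Just inside the rule lay ANLN (22.5 and 45.02 CPM) and KCNT1 (96.3 and 48.1 CPM), and just outside it SNX10 (17.1 and 34.3 CPM) and CABP5 (22.5 and 11.3 CPM). A difference in summed RNA does not separate more cells of a type from more RNA in each cell, so 2 ranges of cells were also compared on their own.

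**Figure D2:**
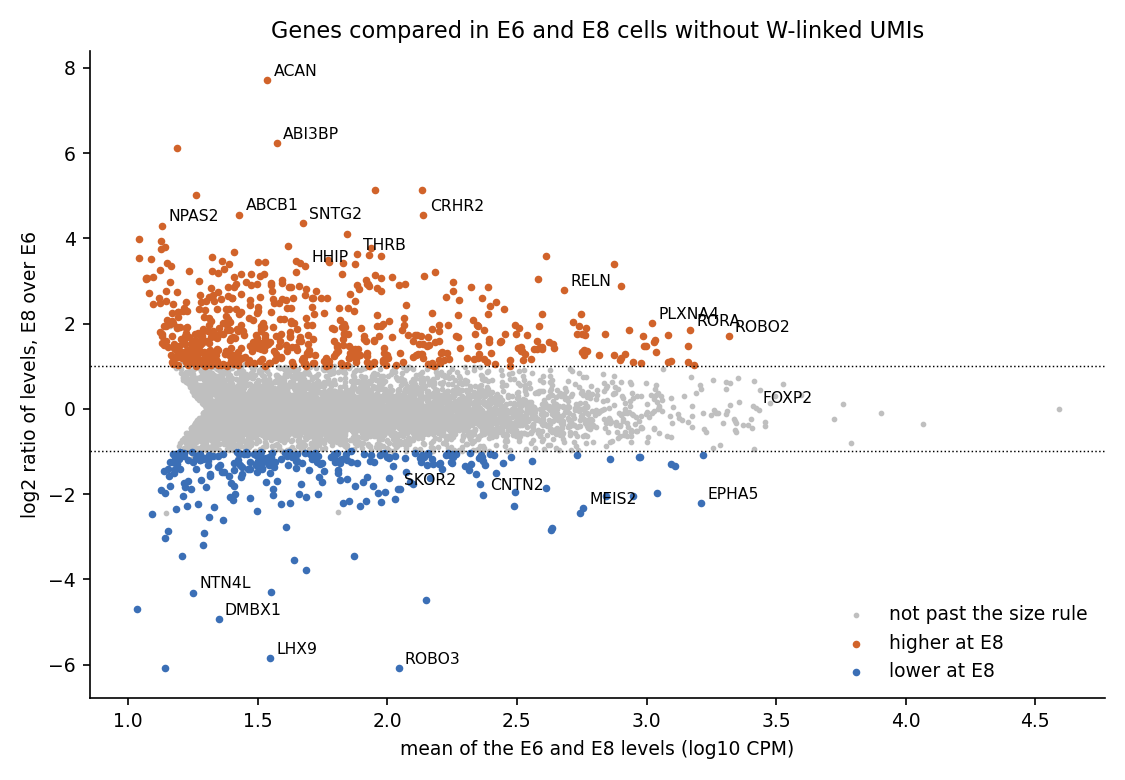
The log2 ratio of the E8 level over the E6 level of 6709 genes against the mean of the E6 and E8 levels (log10 CPM), with 606 genes called higher at E8, 269 called lower, and dotted lines at a 2-fold difference. ACAN and ABI3BP lie at the upper edge and ROBO3 and LHX9 at the lower edge.

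Each cell was placed by whether it held more UMIs of 11 progenitor and glial genes or of 10 neuronal genes, ties being left out. These gates are ranges of a score, not cell types, and 694 of 4919 cells had a gap of 1 UMI or less. That was 11.4% of the cells at E6 and 16.8% at E8. The progenitor gate held 26.1% of the cells at E6 (24.4 to 27.9) and 51.2% at E8 (49.2 to 53.2). The neuron gate held 69.6% at E6 (67.8 to 71.4) and 43.3% at E8 (41.3 to 45.3). The wells did not overlap in either share. The progenitor gate also took in most cells rich in endothelial genes (described further below), 20 of 27 at E6 and 137 of 149 at E8. Without them it held 25.3% of the cells at E6 (23.6 to 27.1) and 45.6% at E8 (43.7 to 47.6). Within the progenitor gate 10.6% of 7141 genes were higher at E8 and 4.87% were lower. Without the endothelium-rich cells these shares of the progenitor gate were 8.34% and 5.97% of 6797 genes. Within the neuron gate 8.87% of 6222 genes were higher and 5.66% were lower. In both gates alike 214 genes were higher, 206 of them also called in all kept cells, and 87 were lower, of which 74 were. A gate need not hold like cells at both stages. In the progenitor gate without endothelium-rich cells, listed Purkinje genes summed to 2965 CPM at E6 and 10160 CPM at E8. Listed synaptic genes summed there to 6059 and 14314 CPM, and radial progenitor and glial genes to 7490 and 7627 CPM. PTPRZ1, a member of the radial list, also helps to set this gate, so the radial sum is not independent of it.

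The list for cerebellar nuclear and rhombic lip neurons had the lowest median log2 ratio of the lists compared. It had 5 members compared, of which 3 were lower at E8 and 0 higher, against 4.01% and 9.03% of all genes compared. Its median was −2.13, and 1 of the 5 passed the minimum only through E6. LHX9, a LIM-homeodomain factor of nuclear neurons in mouse (chromosome 8, 2281976 to 2301572 in RefSeq GRCg7b), stood at 72.4, 62.8 and 74.3 CPM in the E6 wells and at 0.318, 2.22 and 0.936 CPM in the E8 wells. The stages did not overlap, and the level fell 57.7-fold (log2 −5.85, interval −6.81 to −5.04). MEIS2, a homeobox cofactor of the same lineage, fell from 916, 993 and 938 CPM to 180, 186 and 198 CPM. Its fall was 5.06-fold and was seen in the neuron gate (log2 −2.42). In the progenitor gate the log2 ratio was −1.13, and −0.84 there without the endothelium-rich cells. LMX1B, a LIM-homeodomain factor of the isthmus and hindbrain, fell from 174 to 39.9 CPM. SLC17A6, the vesicular glutamate transporter, went from 148 to 83.5 CPM, short of the 2-fold rule, and LMX1A, a rhombic lip and roof plate factor, from 21.0 to 27.3 CPM.

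ROBO3 showed the largest fall of the called genes with a symbol. It encodes a receptor of the Robo family that is known in mammals for steering axons across the midline, and it lies on chromosome 24 (304911 to 314482). Its level was 199, 220 and 237 CPM in the E6 wells and 2.86, 3.61 and 3.12 CPM in the E8 wells. All E6 wells were far above all E8 wells, and the fall was 67.7-fold (log2 −6.08, −6.63 to −5.58). It was deeper in the neuron gate, from 320 to 3.16 CPM, than in the progenitor gate, from 21.8 to 3.29 CPM. When every cell was thinned to 1000 UMIs, which left out 83 cells at E6 and 100 at E8, 11.8% of E6 cells and 0.340% of E8 cells held a ROBO3 UMI (unthinned 19.5% and 1.18%). In cells rich in endothelial genes, which should lack ROBO3, 0 of 26 thinned E6 cells and 0 of 146 thinned E8 cells held one, at median depths of 3931 and 4455 UMIs. In cells without W-linked UMIs ROBO3 stood at 81.8 CPM at E7 and 1.79 CPM at E9, but those sets hold 53.8% and 85.6% of their stage and had lower Z shares.

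The other genes with the largest falls were of mixed kind. DMBX1, a homeobox factor, went from 43.2 to 1.41 CPM, and GALNT6, an enzyme that starts mucin-type O-glycans, from 20.7 to 0.804 CPM. The DMBX1 level was 63.4 CPM in the E6 neuron gate and 4.35 CPM in the E6 progenitor gate, whereas GALNT6 had 8.57 and 44.9 CPM there. NTN4L went from 34.0 to 1.71 CPM, SERTM1 from 29.6 to 2.71, GPR50 from 34.9 to 3.82, FIGNL2 from 25.01 to 3.42, SCRT2 from 71.3 to 10.4 and ABCG4 from 39.7 to 6.53 CPM. SCRT2 is a zinc finger repressor of young neurons and ABCG4 a sterol transporter. The E6 wells of all 8 lay above their E8 wells.

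Purkinje cell genes moved in opposite directions. Of 13 members compared, 4 were higher at E8, 3 were lower and 6 did not pass, with a median log2 ratio of −0.39. Shares over all genes compared were 9.03% higher and 4.01% lower. LHX5 and SKOR1, 2 of the 3 lower genes, passed the minimum only through E6. SKOR2, a corepressor that Purkinje cells need early in their differentiation in mouse, fell from 162, 170 and 189 CPM to 50.3, 48.5 and 41.5 CPM. Its log2 ratio was −1.88 (−2.04 to −1.73), and 14.3% of thinned cells held it at E6 against 3.86% at E8 (unthinned 29.6% and 10.9%). In endothelium-rich cells that share was 11.5% of 26 cells and 0.685% of 146 cells. LHX5, a LIM-homeodomain factor of newborn Purkinje cells, fell from 25.7 to 5.02 CPM, and SKOR1 from 36.8 to 12.4 CPM. SKOR1 was picked from the list after its value was seen.

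RORA, an orphan nuclear receptor required for Purkinje cell maturation in mouse (chromosome 10, 4676286 to 5064573), rose by contrast. It stood at 662, 618 and 639 CPM in the E6 wells and at 2400, 2377 and 2148 CPM in the E8 wells, 3.61-fold higher (log2 1.85, 1.81 to 1.89). The rise was seen in the progenitor gate (log2 2.24) and the neuron gate (log2 1.83). PDE3A, a cyclic nucleotide phosphodiesterase, rose from 28.5 to 249 CPM. DAB1, the adaptor of reelin signalling, rose from 524 to 1462 CPM, and PCDH10, a protocadherin, from 35.4 to 99.2 CPM. FOXP2, a forkhead factor of Purkinje and nuclear neurons, had 2709, 2402 and 2775 CPM at E6 and 2940, 2546 and 2564 CPM at E8, and its wells overlapped. Its level went from 1199 to 2459 CPM in the progenitor gate and from 3329 to 2878 CPM in the neuron gate.

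**Figure D3:**
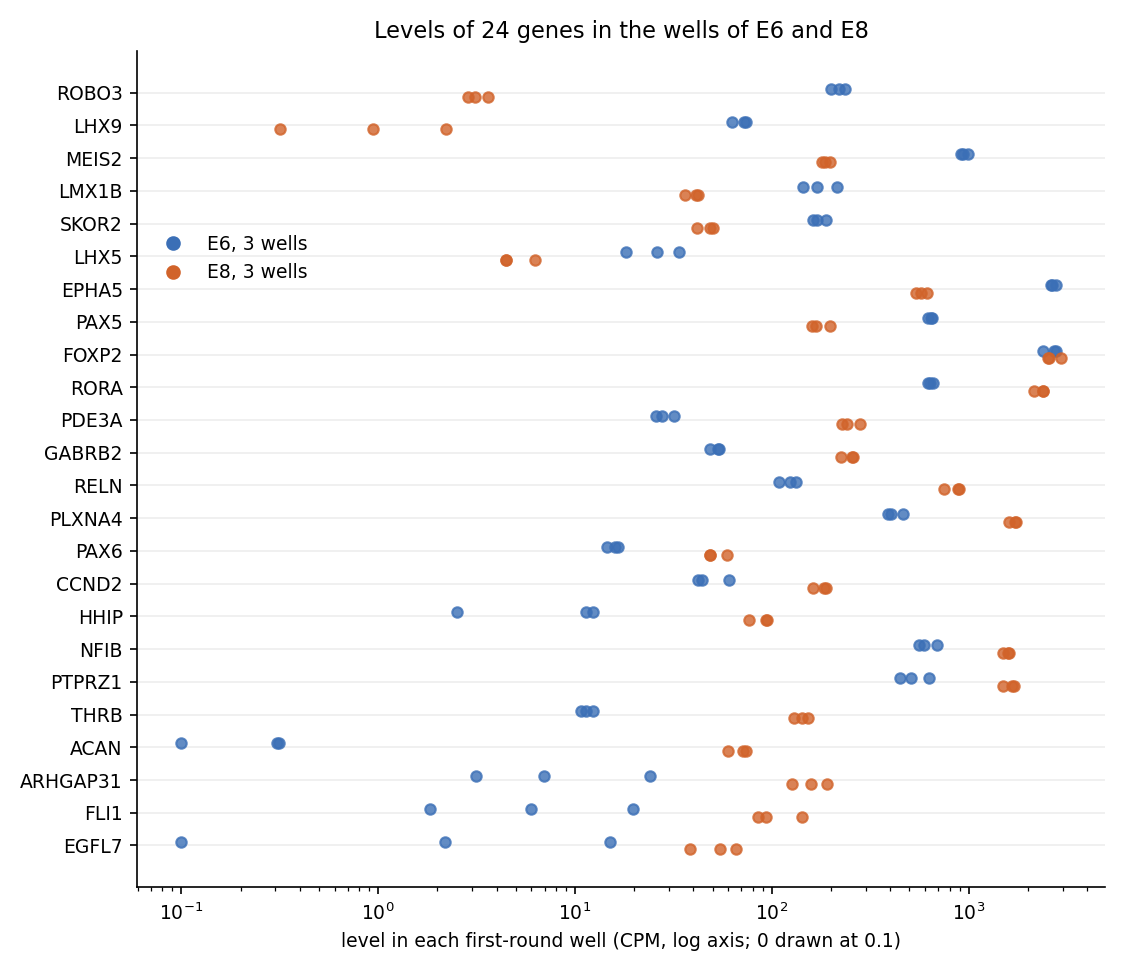
Levels of 24 genes (CPM, log axis, with 0 drawn at 0.1) in the 3 first-round wells of E6 and the 3 of E8, each point 1 well. The wells of the 2 stages lie apart for all genes drawn but FOXP2, and the E6 wells spread most for FLI1, EGFL7 and ARHGAP31.

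Granule cell genes were also split. PAX6, the paired-box factor of granule cell precursors, rose from 14.5, 16.01 and 16.5 CPM to 58.9, 48.3 and 48.4 CPM. In the neuron gate it went from 7.23 to 73.1 CPM, while in the progenitor gate it stood at 32.5 CPM at E6 and 34.4 CPM at E8. CNTN2, an axonal adhesion molecule, fell from 377 to 93.4 CPM, and NHLH1 and NHLH2, basic helix-loop-helix factors of young neurons, fell from 45.4 to 17.9 and from 72.5 to 26.8 CPM. In all kept cells PAX6 alone of 10 compared was called higher and 3 were lower, against 9.03% and 4.01% of all genes compared. The median log2 ratio of the list was −0.18. Of these 10, 1 passed the minimum only through E8 and 1 only through E6. Without the endothelium-rich cells 2 of 11 were higher and 3 lower, with a median of 0.13. In the neuron gate 5 of 11 were higher and 3 lower, against 8.87% and 5.66% of all genes compared there. The median of the 11 was 0.40, and 5 of them passed the minimum only through E8. In the progenitor gate 0 of 9 were called in either direction, with a median of −0.51. ATOH1, the rhombic lip factor that defines granule precursors, had no entry under that symbol. PTF1A, the determinant of ventricular zone GABAergic neurons, had 11 UMIs at E6 and 4 at E8, too few for a comparison.

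Genes of cell division summed to a higher level at E8 in the neuron gate, where the 24 listed mitosis genes with a UMI went from 220 to 813 CPM. In the progenitor gate they summed to 1874 CPM at E6 and 1589 CPM at E8. In all kept cells the sum went from 785 to 1257 CPM. All 15 mitosis genes compared had log2 ratios above 0, but only CENPF, a kinetochore protein, and ANLN, a scaffold of the cleavage furrow, passed the rule, and the list median was 0.71. CENPF went from 67.0, 61.9 and 53.8 CPM in the E6 wells to 138, 124 and 135 CPM in the E8 wells. With the E6 cells weighted to the E8 mix of gates their log2 ratios were 0.53 for CENPF and 0.44 for ANLN, short of the rule. Within the neuron gate 11 members passed the minimum, 8 of them only through E8. All 11 were called higher, against 8.87% of all genes compared there. Of the 24 with a UMI, without any minimum, 24 had a higher level at E8 in the neuron gate and 7 in the progenitor gate. CENPF itself went from 16.8 to 105 CPM in the neuron gate and from 148 to 151 CPM in the progenitor gate. CCND2, a cyclin of the G1 phase, rose from 49.6 to 179 CPM in all cells, and in the neuron gate from 15.96 to 158 CPM. Of the DNA replication genes RRM2, a ribonucleotide reductase subunit, was higher among 7 compared, but its log2 ratio was 0.69 without the endothelium-rich cells.

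The hedgehog list had 3 members higher and 2 lower at E8 among 10 compared, against 9.03% and 4.01% of all genes compared. Of the 10, 2 passed the minimum only through E8 and 1 only through E6. Sonic hedgehog is the ligand that Purkinje cells supply to granule cell precursors. SHH, its gene, had 3 UMIs at E6, 1 in each well, and 88 UMIs at E8 (0.328 and 8.84 CPM, log2 4.75 with an interval of 3.16 to 7.06), below the level set for the rule. HHIP, a decoy receptor that is itself a target of the pathway, rose from 2.52, 12.3 and 11.4 CPM to 93.9, 76.3 and 94.5 CPM. The HHIP rise was from 8.37 to 145 CPM in the progenitor gate and from 8.74 to 14.6 CPM in the neuron gate. PTCH1, the receptor and a target, rose from 103 to 227 CPM, and was named after its value was seen. BOC and CDON, the coreceptors, fell from 505 to 216 and from 40.8 to 14.2 CPM. The log2 ratio of BOC, −1.23, was −0.77 when each cell counted equally, short of the rule.

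Among radial progenitor and glial genes 2 of 12 were higher, 2 were lower, and the median log2 ratio was −0.20. All genes compared gave 9.03% higher and 4.01% lower, and 1 of the 12 passed the minimum only through E8. PAX3, a paired-box factor of the dorsal neural tube, fell from 388 to 136 CPM, and FGFR3, a fibroblast growth factor receptor, from 95.4 to 33.8 CPM. FGFR3 fell more in the progenitor gate (239 to 47.7 CPM) than in all cells. PTPRZ1, a receptor phosphatase of radial glia and 1 of the genes of the progenitor gate, rose from 529 to 1625 CPM in all cells, and BCAN, a brain proteoglycan, from 10.3 to 20.8 CPM. The BCAN call lay at the edge of the rule (log2 1.02) and ended without any of 4 single wells (0.83 to 0.996), and its log2 ratio was 0.58 in the progenitor gate and −0.55 in the neuron gate. SOX2, the neural progenitor factor, had 10.7 CPM at E6 and 16.9 CPM at E8, below the level set for the rule. PAX5, expressed at the isthmus and in GABAergic precursors, fell from 623, 648 and 654 CPM to 168, 198 and 161 CPM. EN2, an engrailed factor of the midbrain and hindbrain border, fell from 50.01 to 19.996 CPM.

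Genes linked to developmental age gave 3 higher and 1 lower among 15 compared, against 9.03% and 4.01% of all genes compared. Of the 15, 2 passed the minimum only through E8. The median log2 ratio of the list was 0.27 in all kept cells, but −0.27 without the endothelium-rich cells. It was −0.41 in the progenitor gate and −0.19 in the neuron gate. NFIB, a nuclear factor I protein, rose from 692, 592 and 562 CPM to 1578, 1599 and 1499 CPM. Its level in the neuron gate went from 340 to 1697 CPM, against 1158 and 1445 CPM in the progenitor gate. HMGA2, a chromatin protein of embryonic progenitors, rose from 136 to 310 CPM in all cells, with log2 ratios under 1 in the progenitor gate (0.76), in the neuron gate (0.79) and with E6 weighted to the E8 mix of gates (0.74). Under that weighting NFIB had 0.95. The level of NR2F2, an orphan nuclear receptor, rose from 31.0 to 74.0 CPM. SOX11, a factor of young neurons, fell from 336 to 162 CPM, and LIN28B, an inhibitor of let-7 maturation, had 63.7 and 43.6 CPM. THRB, the thyroid hormone receptor beta (chromosome 2, 37164426 to 37332785), was the 1 gene called among 6 of thyroid hormone and retinoic acid signalling. It stood at 10.7, 12.3 and 11.4 CPM in the E6 wells and at 129, 142 and 152 CPM in the E8 wells, 12.3-fold higher (log2 3.62, 3.34 to 3.92). At E8 18.2% of thinned progenitor-gate cells and 2.54% of neuron-gate cells held a THRB UMI, and the shares at E6 were 1.96% and 0.476%. Over all thinned cells the share was 0.882% at E6 and 10.7% at E8 (unthinned 3.004% and 24.8%), and in endothelium-rich cells it was 15.4% of 26 and 11.6% of 146.

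Adhesion and guidance genes held 12 higher and 6 lower among 37 compared, with a median log2 ratio of 0.40. All genes compared gave 9.03% higher and 4.01% lower, with a median of −0.09. Of the 37, 2 passed the minimum only through E8 and 1 only through E6. RELN, the secreted matrix protein that guides Purkinje cell placement, rose from 108, 132 and 123 CPM to 895, 747 and 887 CPM. It was 6.91-fold higher at E8, and the neuron gate went from 126 to 1411 CPM. CDH7, a cadherin, rose 7.37-fold, from 20.3 to 150 CPM. PLXNA4, a semaphorin coreceptor, rose from 421 to 1686 CPM, and ROBO2, a Slit receptor, from 976 to 3174 CPM. The ROBO2 gain in CPM was the largest among genes with a symbol that were called higher. EPHA5, a receptor for A-type ephrins, showed the largest loss among those called lower, from 2639, 2626 and 2771 CPM to 615, 573 and 539 CPM. Its fall was from 3608 to 693 CPM in the neuron gate, and in the progenitor gate from 801 to 478 CPM, under 2-fold. EFNA5, one of its ligands, fell from 2238 to 1055 CPM. The largest gains also included ERBB4, the neuregulin receptor (767 to 2115 CPM), and TAFA5, a secreted protein (563 to 1863 CPM). The largest losses also included MTCL1, a microtubule crosslinker (1748 to 445 CPM), DNAAF9 (1846 to 732 CPM) and THSD7A (1420 to 347 CPM).

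Synaptic genes had 4 higher and 0 lower among 29 compared, and a median log2 ratio of 0.29. Over all genes compared 9.03% were higher and 4.01% lower. The 32 listed synaptic genes with a UMI summed to 19077 CPM at E6 and 17307 CPM at E8. GABRB2, a GABA-A receptor subunit, rose from 48.8, 54.2 and 53.1 CPM to 257, 226 and 258 CPM. GRIA4, an AMPA receptor subunit, rose from 92.4 to 355 CPM, CPLX1, a complexin of transmitter release, from 31.1 to 105 CPM, and NLGN1, a postsynaptic adhesion protein, from 320 to 804 CPM. In the progenitor gate 13 of 26 synaptic genes were higher and in the neuron gate 9 of 29, against 10.6% and 8.87% of all genes compared there. Their sum went from 5821 to 11312 CPM in the progenitor gate and from 25884 to 24855 CPM in the neuron gate. Axonal and cytoskeletal genes had 0 higher and 4 lower among 18, and a median of −0.60. The 4 were STMN2, STMN3, ELAVL4 and NSG1, which also belong to the neuron gate, and STMN2 fell from 349 to 166 CPM. Without the endothelium-rich cells 1 of 18 was lower. With E6 weighted to the E8 mix of gates the log2 ratios of STMN2, STMN3 and ELAVL4 were −0.53, −0.70 and −0.86, short of the rule. Because these genes help to set the gates, the weighting cannot show whether their falls reflect the mix of cells. The log2 ratio of NSG1 without the endothelium-rich cells, −0.91, was also short of the rule.

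**Figure D4:**
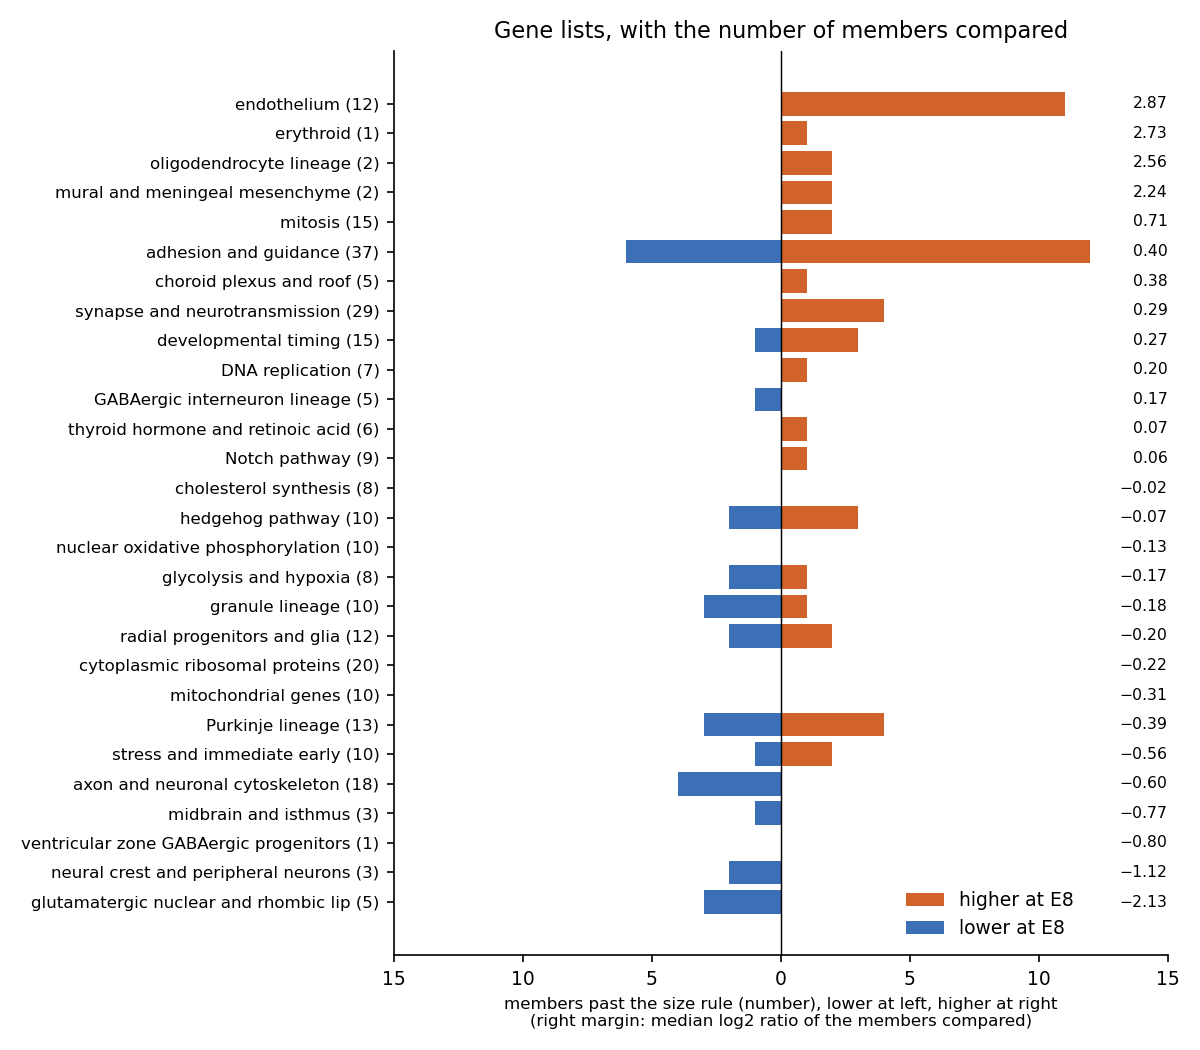
For each gene list, with the number of its members compared in parentheses, bars give how many of the members that passed the expression minimum were called lower (left) and higher (right) at E8, and the right margin gives the median log2 ratio of the members compared. The endothelium list stands at the top with 11 of 12 higher, and the list of glutamatergic nuclear and rhombic lip genes at the bottom with 3 of 5 lower.

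Endothelial genes were higher at E8. Of the 17 listed genes with a UMI, without any minimum, 16 had a higher level at E8. The minimum passed 12, 9 of them only through E8, and 11 of the 12 were called higher, against 9.03% of all genes compared. The median log2 ratio of the 12 was 2.87. The one compared and not called was MFSD2A, a lipid transporter of the blood-brain barrier, at 22.1 and 14.97 CPM. The list summed to 129, 421 and 170 CPM in the E6 wells and to 1014, 1480 and 1265 CPM in the E8 wells. FLI1, an ETS factor of endothelium, had 5.98, 19.7 and 1.83 CPM in the E6 wells and 84.7, 142 and 93.9 CPM in the E8 wells. The middle E6 well held most of the endothelial RNA at E6. Without it the log2 ratio of FLI1 went from 3.50 to 4.74, that of EGFL7 from 3.16 to 5.72, that of FLT4 from 2.95 to 4.96 and that of TIE1 from 3.06 to 4.96. Cells with at least 5 UMIs of the list that made up at least 0.1% of their UMIs were termed endothelium-rich, a threshold set after the data were seen. They made up 27 cells at E6 (1.10%, 0.724 to 1.59) and 149 cells at E8 (6.07%, 5.16 to 7.08). They held 2.01% of the UMIs at E6 and 14.0% at E8.

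Without the endothelium-rich cells 6.69% of 6483 genes were higher at E8 and 4.35% were lower. The 434 genes then called higher included 364 of the 606, or 60.1%, and the 282 called lower included 221 of the 269, or 82.2%. ABCB1, the efflux transporter of the blood-brain barrier, stood at 1.26, 3.39 and 1.83 CPM in the E6 wells and 43.9, 47.4 and 63.3 CPM in the E8 wells. Its log2 ratio was 4.56, and 1.07 without these cells, from 5 UMIs at E6 and 10 at E8 (interval −0.62 to 2.97). Among the endothelium-rich cells alone ABCB1 went from 81.7 to 361 CPM (15 and 502 UMIs, log2 2.15 with an interval of 1.41 to 2.99). APOLD1, an endothelial gene, went there from 43.6 to 244 CPM (8 and 339 UMIs, 0 to 63.1 CPM in the E6 wells). ARHGAP31 went from 490 to 1081 CPM, with 127 to 591 CPM in the E6 wells and 951 to 1166 CPM in the E8 wells. The neuron gate held 5 of the 27 endothelium-rich cells at E6 and 5 of the 149 at E8. What part this had in these differences was not tested. SLC2A1, the glucose transporter of the barrier, went from 19.8 to 94.3 CPM in all cells, but had 555 and 633 CPM within the endothelium-rich cells, where its wells overlapped. Its log2 ratio without these cells was −0.35. DLL4, a Notch ligand of endothelium, gave 2.55 in all cells and −0.67 without the endothelium-rich cells. The latter came from 35 UMIs at E6 and 21 at E8, with an interval of −1.52 to 0.15 and overlapping wells. ECSCR and MYCT1, also endothelial, rose in all cells, with log2 ratios of 3.98 and 3.80 that became 1.29 and 2.21. The 1.29 of ECSCR came from 0 UMIs at E6, raised to 3, and 7 at E8. Ratios of these genes also differed between sublibraries 1 and 2 taken alone, with 4.001 and 6.13 for APOLD1, 2.96 and 5.196 for ARHGAP31, and 1.52 and 3.20 for SLC2A1.

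Several of the largest rises were as large without the endothelium-rich cells. ACAN, the large proteoglycan of perineuronal nets (chromosome 10, 13060505 to 13104655), had 2 UMIs at E6 and 684 at E8. Its E8 wells stood at 60.2, 71.6 and 73.9 CPM, and the log2 ratio was 7.71 with the E6 count raised to 3, with a counting interval of 6.44 to 11.4. At E8 ACAN stood at 119 CPM in the progenitor gate and 8.26 CPM in the neuron gate. ABI3BP, an extracellular matrix protein, rose from 0.983 to 74.1 CPM, in both gates. CRHR2, a receptor for corticotropin-releasing peptides, had 20.1, 6.47 and 6.96 CPM in the E6 wells and 271, 249 and 275 CPM in the E8 wells, with a log2 ratio of 4.54 that became 5.30 without the first E6 well. In the neuron gate CRHR2 went from 6.39 to 296 CPM, and in the progenitor gate from 21.8 to 233 CPM. SNTG2, a syntrophin, rose from 4.37 to 89.8 CPM, and NPAS2, a clock-related factor, from 1.31 to 25.8 CPM. In sublibraries 1 and 2 alone the log2 ratio of NPAS2 was 5.36 and 3.50. The log2 ratios of ACAN, ABI3BP, CRHR2, SNTG2 and NPAS2 without the endothelium-rich cells were 7.88, 6.40, 4.72, 4.57 and 4.34.

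**Figure D5:**
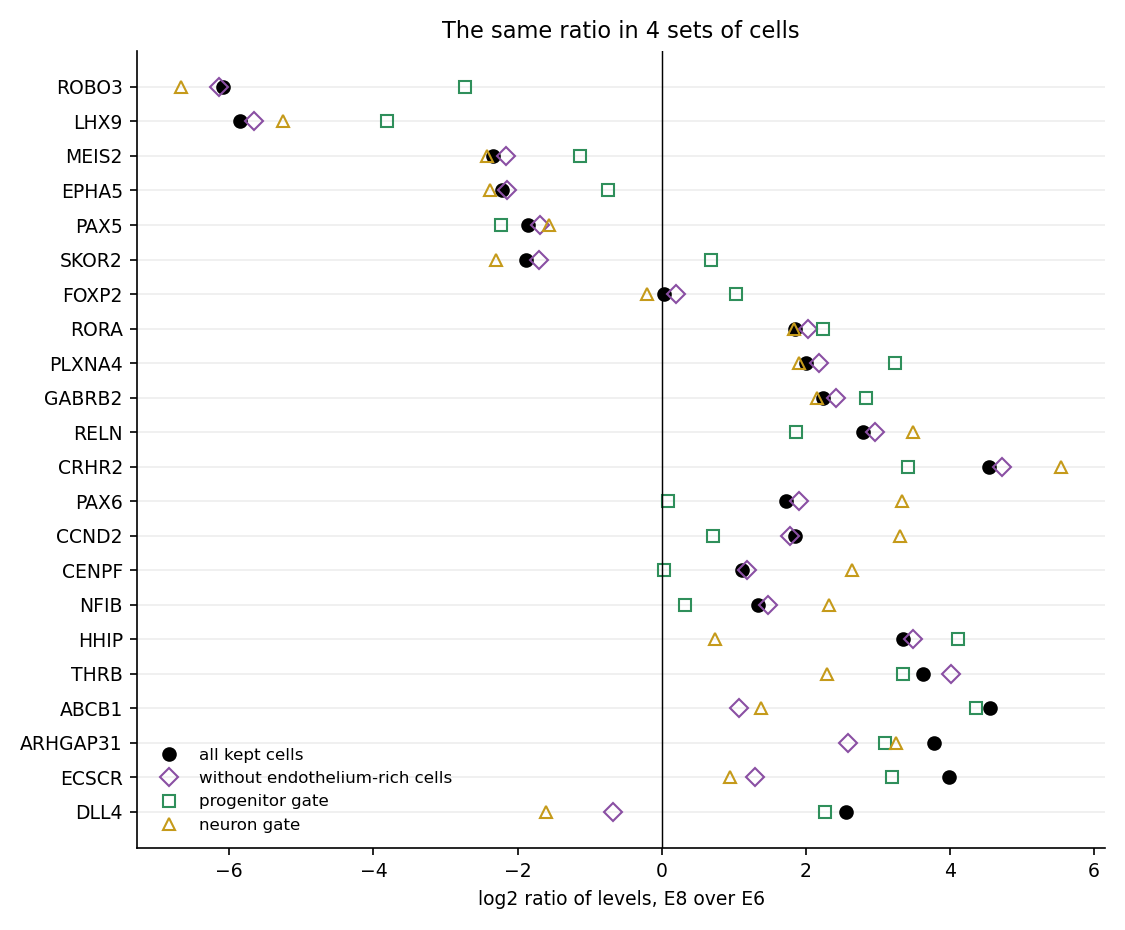
The log2 ratio of the E8 level over the E6 level for 22 genes in all kept cells, without endothelium-rich cells, in the progenitor gate and in the neuron gate. DLL4 and ABCB1 move most when endothelium-rich cells are left out, CENPF and PAX6 lie near 0 in the progenitor gate and above 2 in the neuron gate, and HHIP shows the reverse order.

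Genes listed for other cells were few among those compared. HBBA, a globin of red blood cells, had 1.57, 2.46 and 8.79 CPM in the E6 wells and 20.4, 37.5 and 21.2 CPM in the E8 wells, and its log2 ratio of 2.73 became 3.73 without the third E6 well. In sublibrary 1 alone it was 4.13 and in sublibrary 2 alone 1.87. PDGFRB, a receptor of mural cells, rose from 20.1 to 78.0 CPM, and CSPG4, of pericytes and oligodendrocyte precursors, from 5.68 to 32.5 CPM. Without the endothelium-rich cells the log2 ratio of PDGFRB was 0.44 and that of CSPG4 2.65, the latter from 7 UMIs at E6 and 42 at E8. Of the 323 CSPG4 UMIs at E8, 281 lay in the endothelium-rich cells. Within those cells CSPG4 had 245 CPM at E6 and 202 CPM at E8, and its wells overlapped. In sublibraries 1 and 2 alone its log2 ratio in all kept cells was 1.86 and 3.18. MBP, the myelin protein gene, rose from 7.10 to 43.1 CPM. At E8 6.44% of thinned neuron-gate cells and 1.73% of thinned progenitor-gate cells held an MBP UMI. Of the 10 listed oligodendrocyte genes with a UMI, without any minimum, 5 had a higher level at E8. The 2 of them compared, MBP and CSPG4, passed the minimum only through E8. BMP6, a ligand listed for the choroid plexus and roof, rose from 7.86 to 39.7 CPM, the 1 call among 5. TFAP2A and TFAP2B, listed for neural crest and also known in GABAergic precursors, fell from 73.8 to 34.1 and from 326 to 113 CPM. TFAP2A went from 105 to 42.7 CPM in the neuron gate and from 12.1 to 26.3 CPM in the progenitor gate. Its log2 ratio of −1.12 in all cells was −0.94 without the endothelium-rich cells and −0.63 with E6 weighted to the E8 mix of gates, both short of the rule. The microglial list summed to 62.8 CPM at E6 and 78.2 CPM at E8, with C1QA and C1QB at 0 and no member past the expression minimum. The Hox genes of the hindbrain summed to 0 CPM at E6 and 0.402 CPM at E8. What part these cells had in other differences was not tested.

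No member of the housekeeping lists was called in all kept cells. Of 20 cytoplasmic ribosomal protein genes, 10 nuclear genes of oxidative phosphorylation, 10 mitochondrial genes and 8 genes of cholesterol synthesis compared, 0 were called in either direction. Over all genes compared 9.03% were higher and 4.01% lower, with a median log2 ratio of −0.09. The medians of the 4 lists were −0.22, −0.13, −0.31 and −0.02. Without any minimum, 9 of 62, 17 of 56, 2 of 13 and 9 of 16 members with a UMI had a higher level at E8. Of all genes compared, which passed the minimum, 2832 of 6709 had a log2 ratio above 0. Without the endothelium-rich cells the list counts were 2 of 62, 14 of 56, 1 of 13 and 11 of 16. In the E6 wells the mitochondrial list summed to 1765, 4077 and 4569 CPM. Its sums in the E8 wells, 2365, 3167 and 2656 CPM, lay within that range. Under the rule of size, a gene with overlapping wells cannot be called at any fold. In the progenitor gate 2 of 30 ribosomal protein genes were called lower, against 4.87% of all genes compared there. Of these 30, 13 passed the minimum only through E6. GAPDH, the glycolytic dehydrogenase, fell from 44.3 to 19.1 CPM and HK2, a hexokinase, from 66.3 to 27.3 CPM. The stress list had 2 higher and 1 lower among 10 compared, with a median log2 ratio of −0.56 and 2 ratios above 0. It summed to 893 CPM at E6 and 646 CPM at E8. JUN and ATF3, immediate early factors, rose from 13.9 to 30.2 and from 6.66 to 25.02 CPM, and DNAJA1, a chaperone, fell from 58.7 to 27.0 CPM. Both higher genes, JUN and ATF3, passed the minimum only through E8. Without the endothelium-rich cells the log2 ratio of ATF3 was 0.50 and that of JUN 0.73. In that setting 0 of 9 stress genes compared were higher and 4 were lower, with a median of −0.91. Over all genes compared there 6.69% were higher and 4.35% lower.

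Some genes were called in opposite directions by gate, 18 higher in the progenitor gate and lower in the neuron gate, and 9 the reverse. They were named after their values were seen. The progenitor gate kept its endothelium-rich cells here. With them it held 32.6% of the UMIs at E6 and 55.0% at E8, and without them 30.8% and 41.4%. What part the endothelium-rich cells had in these splits was not tested. NRP1, a semaphorin and VEGF coreceptor, went from 104 to 351 CPM in the progenitor gate and from 232 to 67.7 CPM in the neuron gate. TRIM71, a ubiquitin ligase of early development, went from 48.2 to 155 CPM and from 65.0 to 26.7 CPM. LMX1A went from 21.1 to 9.33 CPM in the progenitor gate and from 20.8 to 52.2 CPM in the neuron gate, and FGF18, a fibroblast growth factor, from 70.3 to 23.6 CPM and from 16.6 to 58.0 CPM.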

How the data were processed

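The UMI counts per gene and cell were deposited by the authors as 1 matrix, with gene and cell annotations beside it, and were used unchanged. The deposited cell annotation gives the stage of each cell and the barcode wells. The submitters' processing notes name Cell Ranger, Seurat and GRCg7b without a role or version, and the aligner is not given in the sources used here. Gene symbols matched RefSeq GRCg7b for 12863 of 30108 entries, from which chromosomes and coordinates come, and 354 entries share a symbol with another and were kept apart.

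Counts were summed over the kept cells of each first-round well and each stage and scaled to CPM, with pandas 2.3.3, scipy 1.17.1 and numpy 2.4.6 under Python 3.11.15, and drawn with matplotlib 3.10.9. Intervals are exact 95% binomial (shares, and ratios from the split of UMIs) or Poisson, and cover counting error only. An E6 or E8 count under 3 was raised to 3 for a ratio. No doublet caller was run, no cell was removed for depth, and the lowest kept cell had 638 UMIs. With 1 pool a stage, no test was run.

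The genes named are, among symbols past the rule of size, the 10 largest log2 rises and 10 largest falls, the 5 largest gains and 5 largest losses in CPM, and up to 4 called members of each of 30 lists. SOX2, FOXP2, SKOR2, PAX6, LIN28B, PTF1A, ATOH1 and SHH are always given. DAB1 and other uncalled or further list members named beside them were picked from the lists after their values were seen. The members and lists were chosen with earlier results of these data known. Alternatives were other cell choices, thresholds, scalings, single sublibraries and leaving out each well. Leaving out endothelium-rich cells, also within the progenitor gate, the smaller W list and reweighting E6 by gate were chosen after seeing the data.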

Additional observations from a re-analysis of the deposited data

How the results depend on the processing

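The counts of genes called, 606 higher and 269 lower at E8, moved most with the thresholds. With a minimum of 5 CPM, or with no CPM minimum, 978 genes were higher and 425 lower, and at 1.5-fold 1017 and 803, since more genes are compared or allowed. Leaving out 1 well at a time gave 607 to 626 higher and 260 to 321 lower. No gene called in all kept cells was called the other way in any of these settings. The share of cells without W-linked UMIs was 99.5% at E6 and 99.8% at E8 after thinning to 1000 UMIs. It was 35.3% and 42.2% when all genes placed on W by symbol had to be at 0, where 460 genes were higher and 284 lower and the log2 ratios of ABCB1, FLI1 and TIE1 were 1.51, 0.71 and 0.04, but 99.0% and 99.1% when NEDD4L and MBD2 were left out of that list. Whether UMIs under these 2 symbols come from W copies is unknown, so the lower shares do not measure W RNA. Without endothelium-rich cells, a setting chosen after seeing the data, 71 of the 85 named called genes still differed 2-fold. The log2 ratios of DLL4 and SLC2A1 were then −0.67 (interval −1.52 to 0.15) and −0.35. With the E6 cells weighted to the E8 mix of gates, also chosen after seeing the data, 558 genes were higher and 284 lower, and 71 of 85 still differed 2-fold. Some of the 85, such as STMN2 and PTPRZ1, also set the gates, and for them nothing can be concluded from this weighting. Calls of NHLH1 (−0.98) and NHLH2 (−0.91) also ended under it, and that of SOX11 (−0.96) without endothelium-rich cells. The log2 ratio of RRM2 was 0.57 under that weighting, and that of ANLN 0.57 in sublibrary 1 alone. The log2 ratio of LHX9 was −6.79 without the second E8 well. No paired analysis was possible because the wells of E6 and E8 carry no shared replicate numbers and no test was run. Depth limits low genes, such as SHH and PTF1A.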

Other observations

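Over all genes compared 4.01% were lower at E8, and the share differed between chromosomes, a split looked at after the values were seen. The split was limited to genes whose symbol has a RefSeq position. The shares and median over all genes compared also count genes without one, so they are not a matched background. On chromosome 26, 10 of 65 genes compared were lower (15.4%), on chromosome 24 7 of 57 (12.3%) and on chromosome 25 5 of 42 (11.9%). On chromosome 1 24 of 870 were lower (2.76%) and on chromosome 2 12 of 598 (2.01%). Other small chromosomes lay on both sides of the share over all genes. Lower genes made up 1.22% on chromosome 21, 2.22% on 14, 2.80% on 18 and 2.94% on 23. They made up 7.5% on chromosome 28, 7.14% on 20, 6.67% on 15 and 6.06% on 17. The median log2 ratios of chromosomes 21, 14, 18 and 23 were still −0.17, −0.11, −0.24 and −0.23, against −0.09 over all genes compared. On chromosome 26 1.54% of genes were higher, and on chromosome 1 10.3%, against 9.03% over all genes compared. The median log2 ratio was −0.39 on chromosome 26 and −0.04 on chromosome 1.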
